A study of Mus musculus with 2 samples.

Results

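The genes described here are 10 endothelial genes, *Stab1*, *Stab2*, *Lyve1*, *Pecam1*, *Cdh5*, *Kdr*, *Tek*, *Egfl7*, *Clec4g* and *Eng*, in cultures of hepatocytes from control mice and from *Drp1*LiKO mice. All array features printed with one of these names, other than control spots, were taken. They came to 18 probes of 56605, with 1 spot each, for 10 of 37074 gene names. The study asked which genes differ in hepatocytes that lack Drp1, the GTPase that divides mitochondria. *Drp1*LiKO mice carried *Alb*-Cre Tg/+ and *Drp1* flox/flox, so that Cre was driven by the promoter of albumin, which is active in hepatocytes and not in endothelial cells. Controls were *Drp1* flox/flox littermates, called wild type in the sample labels, and the labels give both a C57BL/6 background. Hepatocytes were freed by collagenase perfusion, pelleted by slow centrifugation away from the nonparenchymal cells, plated on collagen and harvested 24 h after seeding, with no other treatment. RNA of each genotype was hybridized to 1 single-color Agilent array, and the number and age of the mice behind it are not given in the sources used here.

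Endothelial cells line every blood vessel, and in the liver those of the sinusoids form a thin, perforated wall between the blood and the hepatocytes. Sinusoidal endothelial cells take up hyaluronan, modified proteins and immune complexes from the blood with receptors such as the stabilins and LYVE-1, and they send signals that shape the hepatocytes beside them. Endothelial cells of all vessels are held together by VE-cadherin and PECAM-1, and they respond to VEGF, angiopoietins and BMP9 through the receptors encoded by *Kdr*, *Tek* and *Eng*. Several of these genes are also used by other cells: *Stab1*, *Lyve1*, *Pecam1* and *Eng* are made by some macrophages. A hepatocyte culture is a bulk sample, in which more endothelial cells and more RNA per endothelial cell cannot be told apart. The paper reports lower yield and viability of the hepatocytes isolated from *Drp1*LiKO mice. Whether this changed the share of other cells in the cultures was not tested.

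The brightest probe, an oligonucleotide of 60 bases, stands for the gene. The first 30 bases of each, as given in the array files, are shown because every value below rests on these probes.
Stab1: ctcaaggtcaaatgatgagctggaatgaag
Stab2: taagcaccaaaggcaaggcttcatcccata
Lyve1: cactttgtgtgcctttaacaaatacattat
Clec4g: tgtcagtctcaaaatcactgctctaaaccc
Pecam1: ccccagaacatggatgtagaatacacagaa
Cdh5: acttattataagactctagttctcacagac
Kdr: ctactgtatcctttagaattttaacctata
Tek: ctctaatgtgactgtatatactgctcggag
Egfl7: cctgtctaagtggtaaggtggggattgtct
Eng: tacagaactgcccaatccaggggctctggg

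Signals are the processed intensities of the scanner files, which have no unit. The log2 ratio is that of *Drp1*LiKO over control after each array was scaled to its own 75th percentile, which lay at 313 on the control array and at 356 on the *Drp1*LiKO array, so a log2 ratio is 0.18 lower than the bare quotient of both signals. Dim signals, those that Feature Extraction does not mark as well above background, were set to the detection limit of their array (18.2 for control, 15.0 for *Drp1*LiKO), the lowest marked signal, and the ratio is then a bound. A Z score sets a ratio against the mean and the SD (0.65) of the 30275 probes that were not dim on both arrays, and a Z score of 2, the threshold used here, stands at a log2 ratio of 1.30, or 2.46-fold. There were no replicates, so no test was made, and each difference describes these 2 arrays. The only error available was the noise between spots, taken from 300 probes printed 10 times at a like signal, which leaves out the spread between mice and cultures. The targeted gene *Drp1*, listed as *Dnm1l*, gave 2602 on the control array and 1217 on the *Drp1*LiKO array, 2.43-fold lower (Z score -1.95), and its dimmer probe went from 22.8 to 20.9.

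All 10 endothelial genes had a log2 ratio above 0, so that they were higher on the *Drp1*LiKO array after scaling, beside 44.5% of all 20165 detected genes. *Kdr*, *Clec4g*, *Lyve1*, *Cdh5* and *Eng* passed a Z score of 2, beside 3.5% of all detected genes that passed it in this direction. None of the 10 passed it in the other direction, beside 2.81% of all detected genes. The median log2 ratio of the 10 genes was 1.46, or 2.76-fold, whereas that of all detected genes was -0.05. For 8 genes the signal was well above background on both arrays, and their median was also 1.46. *Lyve1* and *Tek* were well above background in *Drp1*LiKO cells only, as were 9.09% of all detected genes, and their ratios are lower bounds. The 7 genes at 2-fold or more, taken in place of the Z score, stood beside 5.32% of all detected genes. None of the spots of these genes was marked as an outlier or as saturated.

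**Figure D1:**
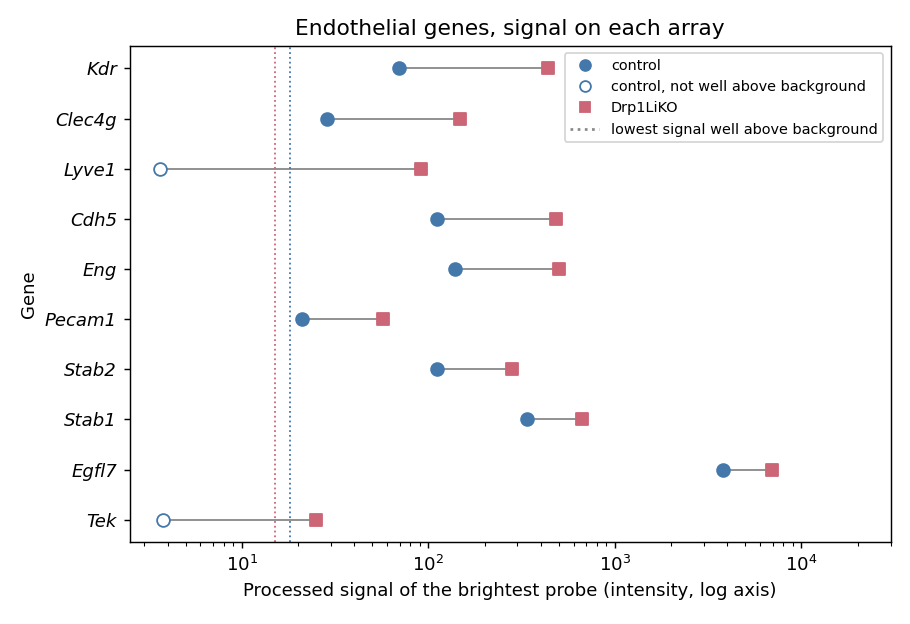
Processed signal (intensity, log axis) of the brightest probe of each of the 10 endothelial genes on the control array (circles) and the *Drp1*LiKO array (squares), with dotted lines at the lowest signal well above background on each array. Every square lies to the right of its circle, and the open circles of *Lyve1* and *Tek* lie at 3.64 and 3.78, below the dotted line of the control array at 18.2.

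Of the 4 sinusoidal genes among the 10, *Clec4g* and *Lyve1* passed the threshold. *Clec4g* encodes LSECtin, a C-type lectin of sinusoidal endothelial cells. Its probe (NM_029465, chromosome 8 of mm9, 3716182 to 3716241) gave 28.6 on the control array and 147 on the *Drp1*LiKO array. That is a log2 ratio of 2.18 with a spot noise of 0.19 (SD), or 4.54-fold, at a Z score of 3.36. The signal on the control array was thus close to the background limit, and that on the *Drp1*LiKO array was well clear of it. The other probe of *Clec4g*, for the transcript ENSMUST00000160527, was not well above background on either array (4.07 and 7.12).

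*Lyve1* encodes a receptor for hyaluronan that marks sinusoidal and lymphatic endothelium. Its single probe (NM_053247, chromosome 7 of mm9, 117994171 to 117994230) had a signal of 3.64 in control cells, not well above background, and of 90.8 in *Drp1*LiKO cells. The gene was at least 4.39-fold higher on the *Drp1*LiKO array, at a Z score of 3.28 for the bound.

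The stabilins are large scavenger receptors, and *Stab2* is the main receptor by which sinusoidal endothelial cells clear hyaluronan from the blood. Its brightest probe (NM_138673, chromosome 10 of mm9, 86303982 to 86304041) gave 112 on the control array and 281 on the *Drp1*LiKO array, a log2 ratio of 1.15 (spot noise 0.17, SD), or 2.21-fold. Both other probes measured on both arrays gave nearly the same ratio. One (NM_138673, 86304198 to 86304257) went from 49.3 to 116, a log2 ratio of 1.05. The other (ENSMUST00000160580, 86381487 to 86381546) went from 30.8 to 73.1, a log2 ratio of 1.06. A probe for ENSMUST00000099390 had 15.6 in control cells, not well above background, and 17.4 in *Drp1*LiKO cells, which is below the control array's limit and gives no fold. The last probe, for AB105397, was not well above background on either array (4.06 and 4.19). The 3 probes measured on both arrays thus had ratios within their spot noise of each other, all short of the threshold.

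*Stab1*, the relative of *Stab2* that is shared with macrophages, gave 337 on the control array and 664 on the *Drp1*LiKO array on its single probe (NM_138672, chromosome 14 of mm9, 31952288 to 31952347). Its log2 ratio was 0.80 (spot noise 0.14, SD), or 1.74-fold, at a Z score of 1.23. The median log2 ratio of the 4 sinusoidal genes was 1.64, and 2 of them passed the threshold. *Lyve1*, a lower bound, is 1 of these 2 and also enters the median, so this median is a bound too.

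Among the genes of all endothelial cells, those of the surface receptors *Kdr* and *Eng* and of the junction protein VE-cadherin passed the threshold. *Kdr* encodes VEGFR2, the receptor through which VEGF drives growth and survival of endothelial cells, and it had the highest ratio of the 8 genes measured on both arrays. Its probe (NM_010612, chromosome 5 of mm9, 76329309 to 76329368) gave 69.4 on the control array and 435 on the *Drp1*LiKO array, a log2 ratio of 2.47 (spot noise 0.18, SD), or 5.52-fold, at a Z score of 3.79. Of all detected genes, 152 had a higher ratio, with bounds taken as they stand. Its other probes, for the transcripts EU884114 (4.53 and 3.66) and ENSMUST00000149573 (3.66 on the control array and lower still on the other), were not well above background on either array.

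*Cdh5* encodes VE-cadherin, the adhesion protein of endothelial junctions. Its single probe (NM_009868, chromosome 8 of mm9, 106668159 to 106668218) gave 111 on the control array and 483 on the *Drp1*LiKO array, a log2 ratio of 1.93 (spot noise 0.17, SD), or 3.82-fold, at a Z score of 2.97. *Eng* encodes endoglin, the coreceptor for BMP9 and TGF-beta. Its brightest probe (NM_001146350, chromosome 2 of mm9, 32537268 to 32537327) gave 139 on the control array and 500.4 on the *Drp1*LiKO array, a log2 ratio of 1.66 (spot noise 0.16, SD), or 3.17-fold, at a Z score of 2.56. With no floor on dim signals, its ratio was the same and *Eng* no longer passed the threshold. A second *Eng* probe, for ENSMUST00000139770, was not well above background on either array (5.66 and 3.09).

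*Pecam1*, *Egfl7* and *Tek* did not pass the threshold. *Pecam1* encodes an adhesion molecule of endothelial cells, platelets and leukocytes. Its single probe (NM_001032378, chromosome 11 of mm9, 106540864 to 106540923) had a signal of 21.0 in control cells, just above the background limit, and of 57.2 in *Drp1*LiKO cells. That is a log2 ratio of 1.26 (spot noise 0.21, SD), or 2.40-fold, and its Z score of 1.95 lay within the spot noise of the threshold. *Tek* encodes TIE2, the receptor for angiopoietins. Its single probe (NM_013690, chromosome 4 of mm9, 94540861 to 94540919) had 3.78 in control cells, not well above background, and 24.9 in *Drp1*LiKO cells, at least 1.20-fold higher. At a signal this near to the limit, the size of the difference was not measurable.

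*Egfl7* encodes a secreted protein of endothelial cells. Its single probe (NM_178444, chromosome 2 of mm9, 26448142 to 26448201) gave 3773 on the control array and 6941 on the *Drp1*LiKO array, a log2 ratio of 0.70 (spot noise 0.07, SD), or 1.62-fold, at a Z score of 1.08. Its ratio was the lowest of the 8 genes measured on both arrays, 1.77 below that of *Kdr* on the log2 scale, against a spot noise of 0.19 (SD) for this gap. The gene also holds a microRNA of endothelial cells, miR-126. Its mature 3p arm lies within *Egfl7* in RefSeq (chromosome 2 of GRCm38.p6, 26591402 to 26591423), and is shown with its seed, bases 2 to 8, in capitals. No probe on the array carries its name, so it has no value here.
mmu-miR-126a-3p: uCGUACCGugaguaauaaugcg

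**Figure D2:**
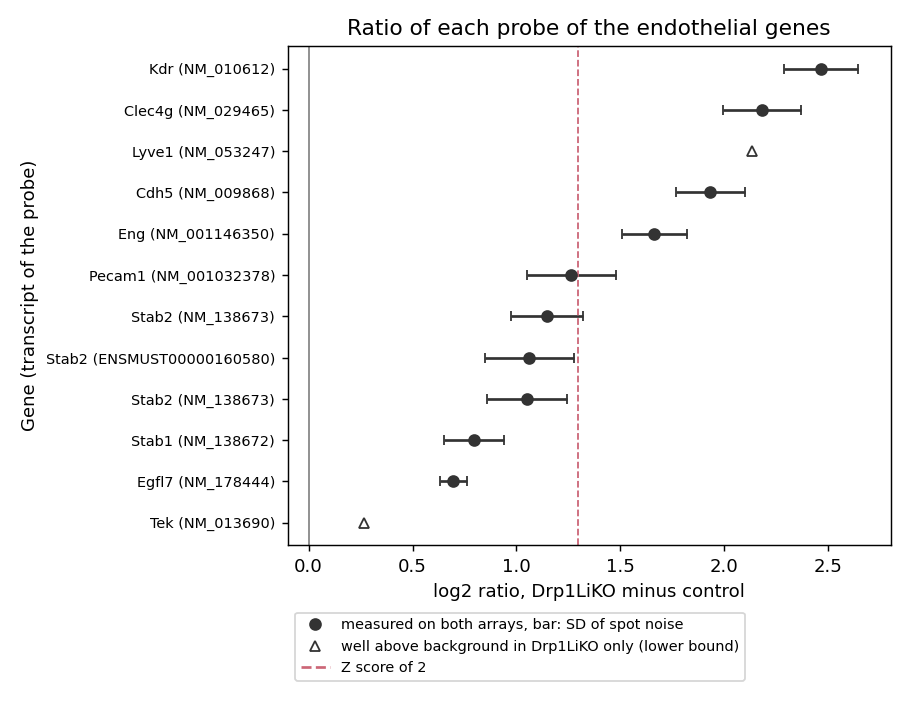
Log2 ratio (*Drp1*LiKO minus control) of each probe of the 10 genes that gives a ratio, with the transcript of the probe in parentheses. Filled points were measured on both arrays, with bars of 1 SD of spot noise, and open triangles are lower bounds. The dashed line is a Z score of 2, and the 3 *Stab2* probes lie together left of it, while *Kdr* lies farthest right of the filled points at 2.47.

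Ordered by their ratios, the 8 genes measured on both arrays ran *Kdr*, *Clec4g*, *Cdh5*, *Eng*, *Pecam1*, *Stab2*, *Stab1* and *Egfl7*, whereas *Lyve1* and *Tek* are lower bounds and have no place in the order. None of the 7 gaps between neighbors in this order was larger than 2 SD of the spot noise, so neighbors cannot be placed apart. Among all detected genes, with bounds taken as they stand, *Egfl7* stood at percentile 91.6 of the ratios and *Kdr* at percentile 99.2. The median log2 ratio of the 6 pan-vascular genes was 1.46, of which 3 passed the threshold. Of the 4 genes also made by some macrophages, *Lyve1* and *Eng* passed the threshold, with a median log2 ratio of 1.46. Of the other 6 genes, *Kdr*, *Clec4g* and *Cdh5* passed it, with a median of 1.54. Each group holds 1 lower bound, *Lyve1* in the first and *Tek* in the second. Whether the signals of either group came in part from macrophages was not tested.

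**Figure D3:**
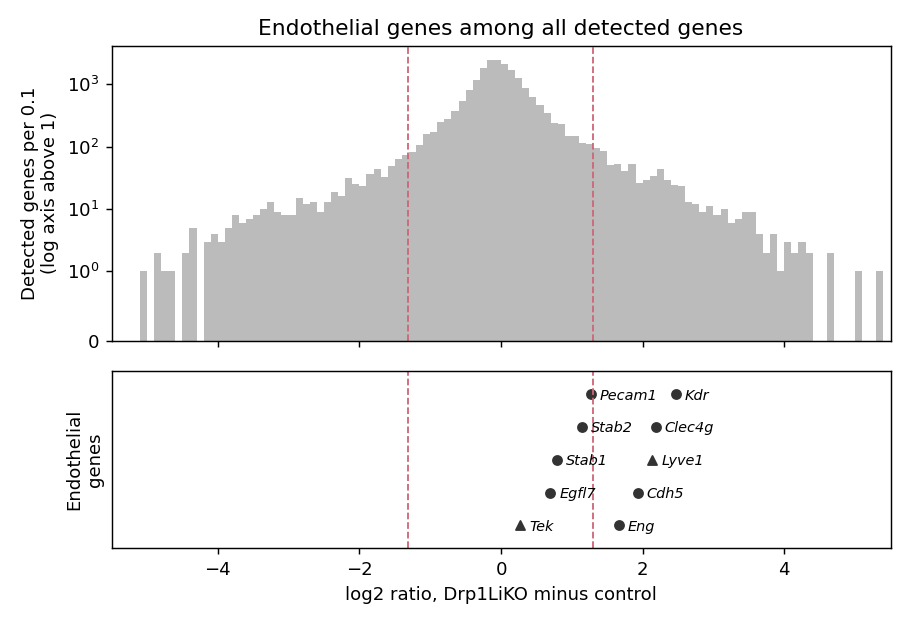
Upper panel, number of detected genes per 0.1 of log2 ratio (*Drp1*LiKO minus control, vertical axis logarithmic above 1) over 20165 genes. Lower panel, the 10 endothelial genes on the same horizontal axis, with triangles for lower bounds and height used only to separate the names. All 10 lie right of 0, and 5 lie right of the dashed line at a Z score of 2.

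The other endothelial genes on the array had ratios of like size. Of 41 further endothelial genes, 36 were detected, 31 were higher in *Drp1*LiKO cells, 18 passed the threshold upward and none downward, with a median log2 ratio of 1.37, or 2.58-fold. Of all detected genes, 44.5% were higher, 3.5% passed the threshold upward and 2.81% downward. For 10 of the 36 the ratio is a bound, and a gene that is dim on 1 array was kept only because it is brighter on the other. Where both arrays had to be well above background, 7 of 7 sinusoidal and 17 of 19 pan-endothelial genes were higher, beside 43.6% of all genes under that filter. The range was wide, from -1.20, a bound for *Wnt2*, to 3.41.

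Among 16 other sinusoidal genes, 12 were detected and 10 were higher, beside 44.5% of all detected genes, with a median ratio of 2.14-fold. As 5 of the 12 are bounds, this value moved with the processing, to a log2 ratio of 1.84 over the 7 measured on both arrays and of 0.55 with normexp and quantile normalization. *Clec1b*, a lectin receptor also carried by platelets and Kupffer cells, went from 25.9 to 313, or 10.6-fold. *Fcgr2b*, the Fc receptor with which sinusoidal cells remove immune complexes, went from 58.0 to 407, or 6.19-fold. *Fcna* (5.44-fold), which is also a macrophage gene, and *Ehd3* (3.58-fold) passed the threshold as well. The paper had already listed *Fcna* among the genes higher in *Drp1*LiKO cells on these arrays. Whether macrophages gave part of the signals of *Clec1b*, *Fcgr2b*, *Fcna* and *Ehd3* was not tested. *Gata4*, the transcription factor that sets sinusoidal identity and is also expressed elsewhere, had the lowest ratio of those measured on both arrays, at 306 and 401, a log2 ratio of 0.21. The Wnt ligand *Wnt2* and *Rspo3*, both secreted by endothelial cells of the central vein region, went opposite ways. *Wnt2* had 30.4 on the control and 4.84 on the *Drp1*LiKO array, not well above background, at least 2.30-fold lower. *Rspo3* had 3.91 in control cells, not well above background, and 42.5 in *Drp1*LiKO cells, at least 2.05-fold higher. *Tfec* was well above background in *Drp1*LiKO cells only and gives no fold. *Dnase1l3*, *Cd209b*, *F8* and *Wnt9b* were not well above background on either array.

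Among 25 other pan-endothelial genes, 24 were detected and 21 were higher, beside 44.5% of all detected genes. The threshold was passed by 14, beside 3.5% of all detected genes, and the median log2 ratio of the list was 1.47. The highest measured on both arrays was *Ptprb*, the phosphatase that acts on TIE2 and VE-cadherin, which went from 42.4 to 452, or 9.37-fold. *Mmrn2* (5.21-fold), *Cd34* (5.15-fold), *Icam2* (4.48-fold), *Robo4* (4.13-fold), *Ramp2* (4.12-fold), *Flt1* (3.95-fold), *Plvap* (3.60-fold), *Ecscr* (3.47-fold), *Cldn5* (3.25-fold), *Esam* (2.95-fold), *Sox18* (2.77-fold) and *Emcn* (2.71-fold) passed it too, and *Tie1*, the relative of *Tek*, was at least 2.77-fold higher. *Efnb2*, an arterial ligand that is not limited to endothelium, had the lowest ratio, with 981 on the control array and 557 on the *Drp1*LiKO array. *Flt4*, the receptor of lymphatic endothelium, was also lower, at 95.4 and 89.5. *Tal1* was well above background in *Drp1*LiKO cells only and gives no fold, and *Vwf*, which venous and arterial endothelium makes, was not well above background on either array.

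The pathways around the 3 receptors were mixed. The counts in this and the following lists stand beside 44.5% of all detected genes with a log2 ratio above 0. Past the threshold upward were 3.5% of all detected genes. Of 9 VEGF ligands and receptors beside *Kdr*, 7 were higher, and *Pgf* and *Flt1* passed the threshold, with a median log2 ratio of 0.26. *Pgf*, a ligand of FLT1, went from 170 to 1109, or 5.76-fold. *Flt1* went from 75.6 to 339 on its brightest probe (NM_010228). Both probes for its transcript ENSMUST00000110529 were well above background in *Drp1*LiKO cells only (43.0 and 23.4), and a probe for AK005502 was not on either array. *Vegfa*, the main ligand of VEGFR2, had 1022 and 2060, a log2 ratio of 0.83. *Nrp1*, its coreceptor, went the other way, from 2522 to 1450, a log2 ratio of -0.98. Its 3 probes for NM_008737 had ratios from -0.98 to -0.79, and fainter probes for AK171933 and AK040447 had 0.19 and -0.39.

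Of 5 angiopoietin genes beside *Tek*, 3 were detected and higher, and *Ptprb* and *Tie1* are given above. The ligand *Angpt2* had 301 on the control array and 420.0 on the *Drp1*LiKO array, a log2 ratio of 0.30, and *Angpt1* and *Angpt4* were not well above background on either array. Of 16 genes of the BMP9 and endoglin pathway beside *Eng*, 15 were detected, 6 were higher and none passed the threshold in either direction, with a median log2 ratio of -0.29. The receptor *Acvrl1* went from 42.3 to 85.7, a log2 ratio of 0.84, and *Tgfbr3* from 33.1 to 76.5, the highest of this list measured on both arrays at 1.02. *Gdf2*, which encodes BMP9, was well above background in *Drp1*LiKO cells only, at least 1.97-fold higher. The target genes *Id1* (-0.58), *Id2* (-0.60), the lowest ratio there, and *Id3* (-0.30) had log2 ratios below 0 on their brightest probes. A fainter probe of *Id2* had 0.06. On their brightest probes the SMAD genes had ratios between -0.40 and 0.06, while fainter probes of *Smad4* reached 0.43. The SMAD genes are genes that hepatocytes use as well.

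Of 9 endothelial Notch genes, 5 were detected, 4 were higher and none passed the threshold, with a median log2 ratio of 0.37. Of the 4 measured on both arrays, *Notch1* had the highest ratio, from 88.6 to 242 (1.27), and *Hes1* the lowest (-0.33), while *Dll1* was well above background in *Drp1*LiKO cells only, at least 1.30-fold higher. With both arrays required to be well above background, 2 of the 4 passed the threshold. The probes of *Notch4* did not run the same way. The brighter one (NM_010929) went from 159 to 426, a log2 ratio of 1.24, while another for the same transcript had 38.1 in control and 3.07, not well above background, in *Drp1*LiKO cells. Of 10 partners of the junction proteins, such as the catenins that bind VE-cadherin and are made by hepatocytes too, 5 were higher and none passed the threshold, with a median of 0.02, from -0.53 for *Tjp1* to 1.23 for *Plxnd1*. The catenin gene *Ctnna1* (-0.03) had another probe at 0.83, and the probes of *Ctnnd1* (-0.08) ran from -0.35 to 0.72. With the median of the probes of each gene, 6 were higher and the median of the list was 0.12. Of 12 other hyaluronan and scavenger genes, 10 were detected, 8 were higher and 2 passed the threshold, *Cd36* (12.9, not well above background, to 142, at least 6.85-fold) and *Scarf1* (at least 2.81-fold). The ratios of both are bounds, kept only through the *Drp1*LiKO array. With both arrays required to be well above background, 4 of 6 were higher, beside 43.6% of all genes under that filter, and none passed the threshold. The highest ratio measured on both arrays in that list was that of *Hyal1* (0.64) and the lowest that of *Scarb1* (-0.27).

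Markers of Kupffer cells, macrophages and stellate cells were mostly higher as well. Of 17 markers of Kupffer cells and macrophages, 15 were detected, all 15 were higher and 13 passed the threshold, with a median log2 ratio of 2.52, or 1.81 with normexp and quantile normalization. With both arrays required to be well above background, 12 of 12 were higher and 11 passed. Their summed signal, not scaled here or for the lists below, was 5213 on the control and 23752 on the *Drp1*LiKO array. The defining markers *Adgre1*, from 46.4 to 330.1, and *Marco*, from 50.7 to 628, were measured on both arrays, and *Clec4f* was not well above background in control cells (13.7) and had 119 in *Drp1*LiKO cells. The other markers past the threshold were *Vsig4*, *Cd5l*, *Cd68*, *Lyz2*, *C1qa*, *C1qb*, *C1qc*, *Mpeg1*, *Ctss* and *Aif1*, with log2 ratios from 1.68, a bound for *Vsig4*, to 3.35 for *Ctss*. A second, fainter probe of *Mpeg1* had -0.49. The lowest ratio was that of *Csf1r*, from 942 to 1773, a log2 ratio of 0.73, and its fainter probe had -0.02. The paper had already listed *Adgre1*, *Cd5l*, *Marco*, *C1qa*, *C1qb* and *C1qc* among the genes higher in *Drp1*LiKO cells on these arrays. The count past the threshold was thus partly fixed beforehand and only describes the list. Of 12 stellate cell markers, 10 were detected, 9 were higher and 5 passed the threshold, with a median of 1.45. For 5 of the 10, including 3 past the threshold, only the *Drp1*LiKO array was well above background, and over the 5 measured on both arrays the median was 1.04, with 2 past the threshold. The median of the list was 0.74 with normexp and quantile normalization and 2.75 with no floor. The markers past the threshold were *Dcn* (16.7-fold), *Col3a1* (at least 8.78-fold), *Col1a2* (7.61-fold), *Lum* (at least 4.19-fold) and *Pdgfrb* (at least 3.63-fold). Their summed signal, 21974 and 30260, was mostly that of *Acta2*, which had 21437 and 24640, the lowest ratio measured on both arrays (0.02). A fainter probe of *Acta2* for the same transcript went from 283 to 1474, a log2 ratio of 2.20. The defining marker *Lrat* was not well above background on either array, and *Des* was in *Drp1*LiKO cells only, with no fold.

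Markers of the remaining cell types were mixed. Of 7 cholangiocyte markers, 5 were detected and 2 were higher, with a median of -0.27, a log2 ratio of -0.40 for *Krt19*, and *Epcam* not well above background on either array. Their summed signal was 29685 on the control and 25176 on the *Drp1*LiKO array. Of 6 platelet markers, only *Pf4*, which went from 24.2 to 153, or 5.58-fold, was measured on both arrays, and *Itga2b* had 11.5, not well above background, and 23.1. The platelet markers summed to 61.0 on the control and 199.9 on the *Drp1*LiKO array. Of 5 lymphatic endothelial markers, 4 were detected and 2 were higher, with *Pdpn* at 99.7 and 324 past the threshold and *Prox1* (-0.37), which hepatocytes also make, below 0. Their summed signals were 614 and 826. Of 9 markers of T, B and NK cells, 7 were not well above background on either array, and the list summed to 289 and 272. Of 14 hepatocyte markers, 8 were higher, with a median log2 ratio of 0.10, equal to that of *Alb*. Their summed signals were 625046 and 733805, a ratio of 1.03 after scaling. Of these markers, *Cyp3a11* (4.08-fold) and *Ahsg* (3.55-fold) passed the threshold, and the lowest measured on both arrays was *Cyp2e1* (-0.78). The part of the Kupffer cell, macrophage and stellate cell RNA in the endothelial result was not tested.

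**Figure D4:**
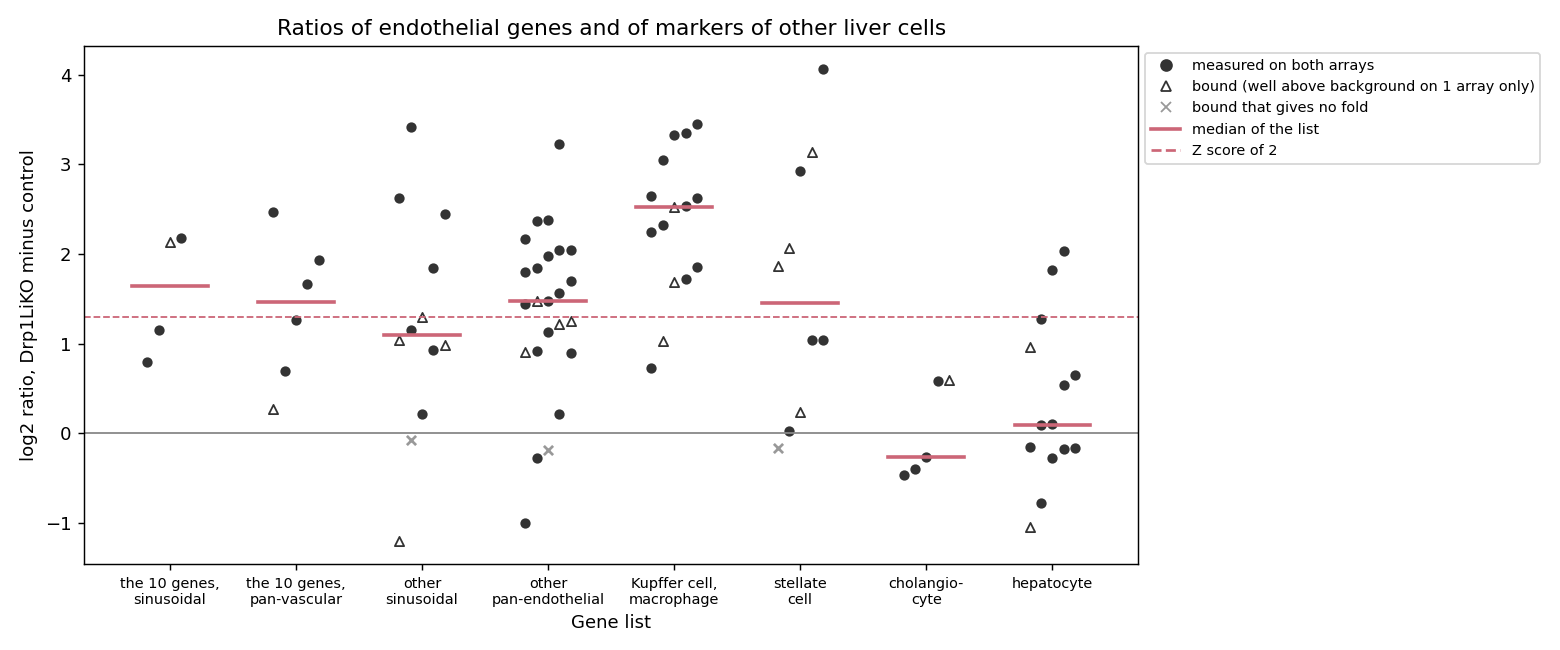
Log2 ratio (*Drp1*LiKO minus control) of each detected gene of 8 lists, with the median of each list as a red bar and a Z score of 2 as a dashed line. Filled points were measured on both arrays, open triangles are bounds, and crosses are bounds that give no fold. The 4 endothelial lists have medians of up to 1.64, a value that rests in part on the bound of *Lyve1*. The Kupffer cell and macrophage list has 2.52, the stellate cell list 1.45, and the cholangiocyte and hepatocyte lists -0.27 and 0.10.

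The direction did not depend on the scaling. Under each of the 10 other settings of scaling, background, filter, floor, outlier spots and gene value, every endothelial gene that the setting kept was higher in *Drp1*LiKO cells, 8 of 8 where the filter asked for both arrays and 10 of 10 otherwise. The sizes moved most for the dim genes. *Lyve1* ranged from 0.97 to 4.46 and *Tek* from 0.07 to 2.54 on the log2 scale, both highest with no floor on dim signals. *Kdr* ranged from 1.79 to 2.51, *Clec4g* from 1.08 to 2.22, *Cdh5* from 1.51 to 2.04 and *Eng* from 1.30 to 1.70. The ranges were 0.47 to 1.31 for *Pecam1*, 0.83 to 1.20 for *Stab2*, 0.72 to 0.89 for *Stab1* and 0.32 to 0.74 for *Egfl7*.

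**Figure D5:**
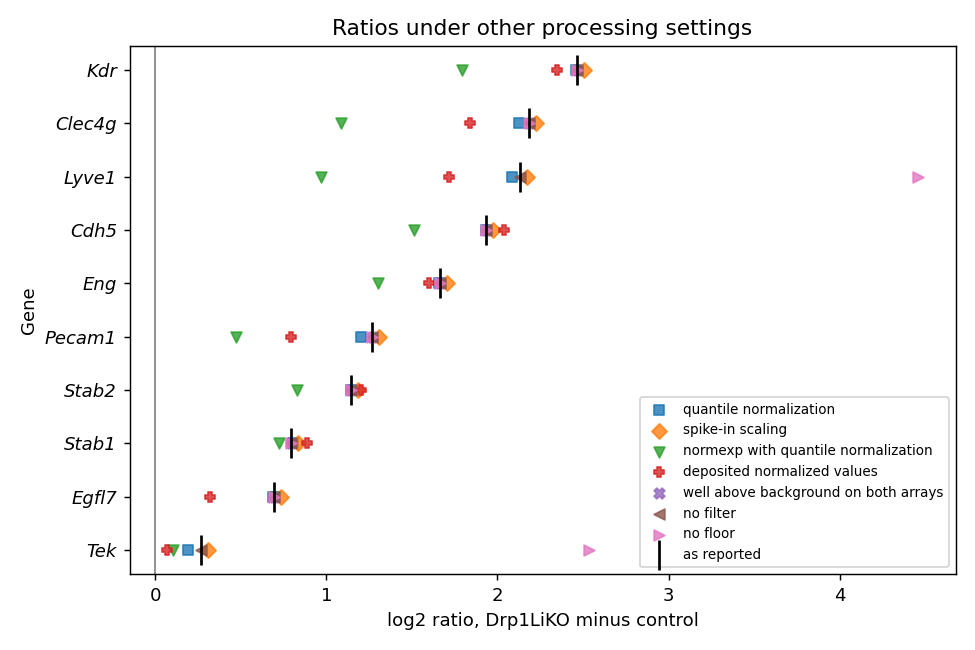
Log2 ratio (*Drp1*LiKO minus control) of each of the 10 endothelial genes as reported (black bars) and under 7 other settings (colored symbols). All symbols lie right of 0, the lowest at 0.07 for *Tek*. Normexp background correction with quantile normalization lies left of the other settings for all genes but *Tek* and *Egfl7*.

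Because these genes all stood in 1 direction, their promoters were searched for the letters GGAA, the core of the sites of ETS factors, which regulate many endothelial genes. RefSeq gave promoters for 7 of the 10 genes, 9 in all since *Egfl7* has 3, and none was at hand for *Lyve1*, *Pecam1* and *Cdh5*. The 250 bases before the start are shown for *Kdr*, *Clec4g* and *Eng*, which have the highest ratios among genes with a promoter that were measured on both arrays, with GGAA and its reverse complement TTCC in capitals. They lie at chr5:75978456-75978705, chr8:3720652-3720901 (both on the minus strand) and chr2:32646345-32646594 (plus strand) of GRCm38.p6, and are read toward the gene.
Kdr: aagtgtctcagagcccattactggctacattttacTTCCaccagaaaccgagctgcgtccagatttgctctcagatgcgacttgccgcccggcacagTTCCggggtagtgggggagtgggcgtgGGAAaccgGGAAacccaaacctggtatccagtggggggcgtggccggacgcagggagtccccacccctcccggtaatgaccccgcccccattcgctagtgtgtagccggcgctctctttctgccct
Clec4g: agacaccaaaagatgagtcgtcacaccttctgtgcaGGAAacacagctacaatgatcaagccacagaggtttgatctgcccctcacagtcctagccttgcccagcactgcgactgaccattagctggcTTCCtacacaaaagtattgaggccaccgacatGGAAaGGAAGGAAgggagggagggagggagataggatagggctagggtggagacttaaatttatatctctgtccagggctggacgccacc
Eng: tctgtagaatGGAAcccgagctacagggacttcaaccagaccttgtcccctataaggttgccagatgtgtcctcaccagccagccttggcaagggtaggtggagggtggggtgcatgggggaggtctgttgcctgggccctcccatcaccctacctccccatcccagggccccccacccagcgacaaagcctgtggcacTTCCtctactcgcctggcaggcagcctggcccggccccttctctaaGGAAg

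All 9 promoters held GGAA on at least 1 strand, and so did 93.4% of 32851 promoters of the same length in the table. The *Kdr* window holds 4 such matches, that of *Clec4g* 5 and that of *Eng* 3, and those of *Stab1* and *Stab2* hold 6 each. The doubled letters GGAAGGAA were found in the promoters of *Clec4g* and of 1 *Egfl7* start, 2 of 9, and in 3.12% of all promoters, and GGAA repeated after a gap of 2 bases in none of the 9 and in 2.79% of all. The letters TATAAA were in the promoter of *Clec4g* and in 12.4% of all, and CACGTG in none of the 9 and in 6.02% of all. The doubled forms contain GGAA, so these searches overlap. A match is a match of letters and does not show that a factor binds.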

How the data were processed

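RNA of control and *Drp1*LiKO primary hepatocytes, 1 sample each, was labeled with Cy3 and read on 1-color arrays. The authors deposited the Feature Extraction output of each array (version 9.5.1.1 per the labels, 10.7.1.1 per the file headers), in which the processed signal, a linear intensity, had been corrected for the background of each spot but not normalized between arrays. They also deposited a table of normalized values in the same intensity unit, with medians of 19.1 in both columns. Over 56600 probes, the control column had a rank correlation of 1.00 with its array and the *Drp1*LiKO column 0.96, so this table was used in 1 alternative only, and how it was normalized is not given in the sources used here. Control and outlier spots were dropped, the mean log2 processed signal of each probe was taken, and arrays were scaled to their own 75th percentile. A probe was kept if either array marked it as well above background. Gene names and coordinates are those of the array design, in mm9, and no exon annotation of that build was used. All 18 probes lie on the chromosome that RefSeq gives for their gene. Sequences of promoters and miRNA are from RefSeq (GRCm38.p6), and those of probes are from the array files.

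The genes and lists were chosen with earlier results of these data known. Named are all probes of the 10 genes, *Dnm1l*, and of each other list the genes past the threshold, the highest and the lowest ratio measured on both arrays, and defining markers. Other names were chosen after their values were seen. Alternatives were quantile normalization, spike-in scaling over 7 probes, another percentile base, normexp with an offset of 50, the deposited normalized intensities, 2 other filters, no floor, outlier spots kept, the median of the probes, and for the threshold a robust Z score, a minimum of 2-fold and a Z score within 20 bins of signal. A planned comparison of protein sequences was not run. The steps were run on simulated data made from the control array, where 200 of 200 changed genes among 19177 passed the threshold. The planted changes exceeded the threshold, lay in bright genes only and were spared the wider spread added to the other genes. Full recovery was thus close to fixed beforehand, and it does not bear on dim genes or smaller ratios. The normexp correction was run in limma 3.58.1 (R 4.3.3), and all else in Python 3.11.15 (numpy 2.4.6, pandas 2.3.3, matplotlib 3.10.9). The precision is limited by the number of arrays.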

Additional observations from a re-analysis of the deposited data

How the results depend on the processing

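With 1 array per genotype, no setting shows how far mice or cultures differ. The count of endothelial genes higher in *Drp1*LiKO cells was 10 of 10 under the settings that kept all genes and 8 of 8 with a filter on both arrays. The count past the threshold, 5 as reported, was 9 with a robust Z score, which 8.54% of all detected genes passed, and between 4 and 7 under the other alternatives, which 2.21% to 5.32% of all genes passed. With no floor *Tek* passed and *Eng* did not, *Stab2* and *Pecam1* passed with no filter and with the filter on both arrays, and *Stab2* with normexp. The median log2 ratio, 1.46 as reported, was 0.90 with normexp and quantile normalization and 1.80 with no floor on dim signals, and from 1.40 to 1.50 otherwise. The median of all genes was -0.47 with no filter, since dim probes then lie at the ratio of both floors. With no filter the medians of the Notch genes (-0.33), the platelet markers (-0.47) and the lymphatic markers (-0.28) turned below 0, and with no floor that of the T, B and NK cell markers was 0.78. No paired analysis was possible because each genotype had 1 array.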
